A study of Mus musculus with 12 samples.

Results

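These data are messenger RNA profiles of effector and naive CD4+ T cells from mice that lack Rinl. The comparison takes the 3 columns of knockout (KO) effector libraries against the 3 columns of KO naive libraries in the table of raw counts, so it uses 6 of the 12 libraries of the study. Cells were sorted by flow cytometry from spleen and peripheral lymph nodes, the naive population from the CD44 low gate and the effector one from the CD44 high gate, with a further surface marker not reported here. The other 6 libraries are the same populations of wild-type (WT) mice, and all 6 libraries described here carry the Rinl knockout. The labels do not say which part of Rinl was altered, in which cells, or the age and sex of the mice. Nor do they tie libraries to animals: if replicates share a mouse, the p-values reflect technical spread alone. The spread behind the p-values of genes was estimated over all 12 libraries, WT ones included, and at best describes those libraries. KO naive libraries are numbered 7, 8 and 9 and KO effector libraries 10, 11 and 12, as in the columns. Total counts were 20072199 to 24320247 in KO naive and 11606251 to 20381010 in KO effector.

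A naive CD4+ T cell recirculates through blood and lymphoid organs, held in a resting state by the transcription factors TCF1, LEF1, BACH2 and FOXO1 and guided to lymph nodes by homing receptors such as CCR7. After it meets antigen it divides, loses these receptors, raises CD44 and takes on a helper programme: T helper 1 (Th1) under T-bet, T helper 2 (Th2) under GATA3, T helper 17 (Th17), follicular helper (Tfh) under BCL6, or regulatory (Treg) under FOXP3. A CD44 high sort of an unmanipulated mouse holds all of these at once. Rinl encodes a relative of the Ras and Rab interactor proteins, which activate the RAB5 small GTPases of early endosomes.

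The libraries carried the labelled genes. Rinl (ENSMUSG00000051735, GRCm38 chromosome 7, 28788969 to 28798963, plus strand) read 32.6, 32.2 and 34.4 CPM (counts scaled to library size, adjusted by the TMM method) in KO naive libraries 7, 8 and 9 and 45.8, 47.5 and 49.4 CPM in KO effector libraries 10, 11 and 12, against 294 ± 7.58 CPM in WT naive and 450.0 ± 12.8 CPM in WT effector (SD, n = 3). Since the altered part of the gene is not given, nothing is read from the remaining counts. Cd44 read 17.1, 18.5 and 21.1 CPM in naive and 239, 226 and 221 CPM in effector libraries. It encodes a sort marker and so is a check, not a finding. Cd4 stayed between 986 and 1060 CPM in all 6 libraries. The summed level of 12 T cell identity genes was 7720 to 8000 CPM in naive and 8110 to 8460 CPM in effector libraries.

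Genes of other cells were detected, most at low levels. The B cell genes Ms4a1 and Cd79a stood between 0.475 and 1.45 CPM in all 6 libraries, and 4 of the 11 tested members of the 15-gene B cell list were higher past 2-fold, among them Cd22, an inhibitory lectin, at 0.518, 0.383 and 0.717 CPM in naive and 10.6, 12.7 and 11.1 CPM in effector libraries. The summed B cell list was 589 to 641 CPM in naive and 1200 to 1450 CPM in effector libraries, most of it Ighm. The 2 CD8 T cell markers summed to 19.8 to 21.8 CPM and 7.19 to 8.04 CPM, the 13 myeloid markers to 43.6 to 57.4 CPM and 54.3 to 78.9 CPM, and the 9 erythroid and platelet markers to 10 to 15.1 CPM and 17.8 to 18.7 CPM. The 9 stromal and endothelial markers summed to 334 to 362 CPM and 158 to 164 CPM, nearly all of it Pecam1, and the 6 plasma cell markers to 52.0 to 53.2 CPM and 147 to 157 CPM, with Irf4 as the largest rise. Xist and Y-linked genes were both detected in all 6 libraries. Xist read 150, 333 and 305 CPM in naive and 358, 598 and 547 CPM in effector libraries. It was higher in effector libraries without overlap (log2 0.932, edgeR adjusted p under 0.05). The Y-linked genes summed to 209.8 ± 31.6 and 183.8 ± 56.7 CPM (SD, n = 3; two-sided exact permutation p = 0.6, where 0.1 is the smallest this design can give). The part of other cells in the changes below was not tested. In bulk libraries, more cells of a type and more RNA per cell cannot be told apart.

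Effector cells differed from naive cells over most of the transcriptome, and the large changes were mostly rises. Of 15905 genes tested in edgeR, 9281 (58.4%) changed at an adjusted p under 0.05, 5023 (31.6%) of them higher and 4258 (26.8%) lower in effector cells. A stricter test asked whether a change exceeded 2-fold, a log2 fold change of 1, and was passed by 1739 higher genes (10.9%) and 426 lower genes (2.68%). Of the changed genes, 4004 differed by a log2 value under 0.5 and 657 by over 4. The 3 effector libraries lay wholly above or below the 3 naive libraries for 10159 genes (63.9%). Since so many genes changed, a list below is read by how many members passed the 2-fold test, beside these percentages. The median log2 change over all tested genes was 0.0085. The TMM method itself centres the bulk of genes, so this median is no check of the scale. In what follows, "rose" and "fell" are said of genes with an edgeR adjusted p under 0.05, and log2 values are effector minus naive. Values in a row are libraries 7, 8 and 9 (naive), then 10, 11 and 12 (effector). The SE beside a log2 value was worked back from that value and its test statistic. For genes near 0 counts it is not a reliable measure of uncertainty.

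**Figure D1:**
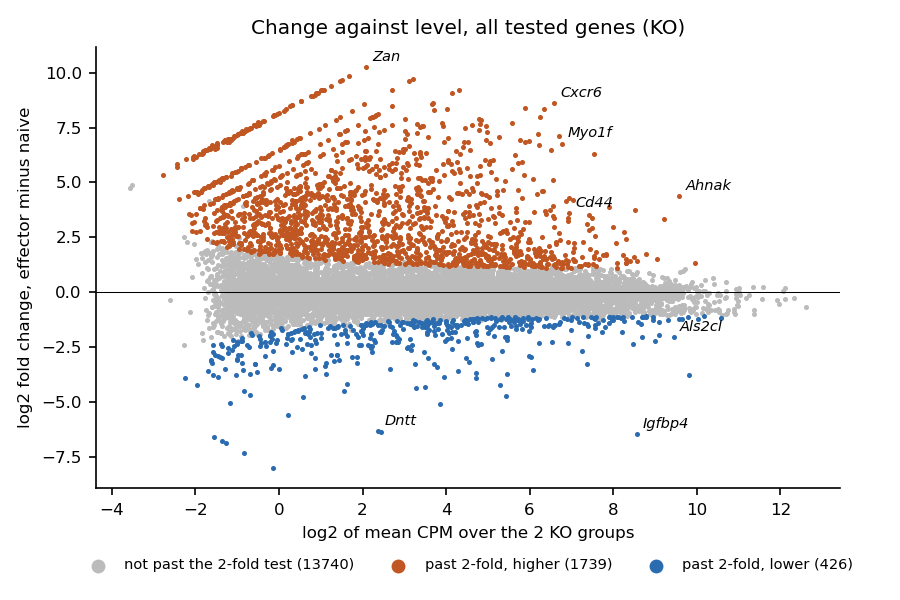
Log2 fold change of KO effector minus KO naive (vertical axis) against the log2 of mean CPM over both groups (horizontal axis) for 15905 genes, with genes past the 2-fold test coloured. Rises (1739 genes) outnumber falls (426 genes), and the diagonal stripes at the upper left are genes at or near 0 counts in naive libraries, whose fitted fold depends on a prior count and is no estimate of size.

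Among genes that reached 5 CPM in either state, the largest rises were in genes almost silent in KO naive cells. Cxcr6, a chemokine receptor of tissue-resident and memory T cells, read 0.173, 0.51 and 0.82 CPM in naive and 229, 163 and 178 CPM in effector libraries (log2 8.60 ± 0.30). Tigit, an inhibitory receptor, went from 0.518, 0.383 and 0.102 to 104, 150 and 97.9 CPM (8.38 ± 0.37), and Il1r2, the decoy receptor of interleukin-1, from 0.0432, 0.085 and 0.0512 to 29.4, 47.6 and 29.6 CPM (9.06 ± 0.40). That every effector library exceeded every naive library was a condition of this ranking. Zbtb16, the PLZF transcription factor of innate-like T cells, went from 0.0432, 0.085 and 0.0512 to 31.8, 22.6 and 21.3 CPM (8.55 ± 0.39). Arnt2, a partner of basic helix-loop-helix factors, went from 0.0432, 0.128 and 0 to 35.8, 49.8 and 33 CPM, and the amino acid transporter gene Slc7a10 from 0.0432, 0.128 and 0 to 19.6, 35.7 and 22.2 CPM. Il1r2, Zbtb16, Arnt2 and Slc7a10 each had 4 counts over the naive group, so the size of their rise is uncertain beyond the SE given.

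A further 3 genes had no count at all in KO naive cells, and others had 1 or 2. Zan, Col16a1 and Ccn4 stood at 0 in libraries 7, 8 and 9 and at 6.70 to 10.6, 5.28 to 7.85 and 3.94 to 6.93 CPM in effector libraries. Against a floor of 3 counts over the naive group (0.0453 CPM) they were at least 188-fold, 140-fold and 121-fold higher. Sostdc1, a secreted antagonist of BMP and WNT signalling, had 1 count over the naive group and 921 over the effector group, a ratio of 1220 with a 95% exact counting interval of 219 to 48300. Tshz2, a zinc finger gene, had 2 and 681 counts (ratio 451, interval 124 to 3730), and Slc24a3, a sodium and calcium exchanger, 1 and 435 (576, interval 103 to 22800). Floors and intervals cover counting error only. These ratios show a large rise and leave its size wide.

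The largest falls at that level included genes of the resting naive cell. Igfbp4, which encodes a binding protein of insulin-like growth factors and marks naive CD4+ T cells, read 753, 788 and 698 CPM in naive and 9.22, 7.03 and 9.80 CPM in effector libraries (-6.46 ± 0.14, edgeR adjusted p = 3.5e-13). Dntt, the template-free polymerase of antigen receptor assembly that recent thymic emigrants still carry, read 10.8, 10.2 and 9.89 CPM and then 0.174, 0.144 and 0 CPM (-6.34 ± 0.31). Drc1, a gene of ciliary dynein regulation, went from 10.7, 9.44 and 11.9 to 0.116, 0.144 and 0.0838 CPM (-6.39 ± 0.28). Non-overlap of naive and effector libraries was a condition of this ranking too. Ampd1 (-5.12), the AMP deaminase gene, Dapl1 (-4.73), Tmem108 (-4.52), Adamts14 (-4.39), a collagen-processing protease, Pdlim4 (-4.23), an actin-associated LIM gene, Sorcs2 (-3.91), Arhgap29 (-3.87) and Amigo2 (-3.74) followed. These genes were named for the size of their fall, so that size is a description.

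Igfbp4 gave the largest fall of the naive state list, and its promoter window is shown for that reason (GRCm38.p6, chr11:99040994-99041293, plus strand, 250 bases before to 50 after the RefSeq start; capitals mark a KLF-type GGGTGTG motif).

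Igfbp4: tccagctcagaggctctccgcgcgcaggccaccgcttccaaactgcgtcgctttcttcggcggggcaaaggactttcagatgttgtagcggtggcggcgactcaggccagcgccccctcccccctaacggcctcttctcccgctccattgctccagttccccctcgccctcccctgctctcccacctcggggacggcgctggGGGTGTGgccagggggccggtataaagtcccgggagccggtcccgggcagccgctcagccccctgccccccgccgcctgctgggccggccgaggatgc

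GGGTGTG or its reverse complement was in 7.85% of the 27025 RefSeq promoter windows of this length. The match is a description of letters, not a site.

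The naive state list fell as a group. Of 21 tested members, 14 were lower past 2-fold, 1 was higher, and the median log2 change was -1.99. Lef1 and Bach2, transcription factors that keep T cells naive, went from 846, 853 and 830 to 173, 173 and 190 CPM (-2.24 ± 0.05) and from 263, 289 and 251 to 69.6, 64.5 and 68.3 CPM (-1.99 ± 0.06). Satb1, a chromatin organiser, fell by 1.95 on the log2 scale. Tcf7, which encodes TCF1, fell less: 2310, 2280 and 2140 CPM became 1100, 1160 and 1220 CPM (-0.95 ± 0.05), short of the 2-fold test. Foxo1 (-0.81 ± 0.04) fell short of it as well. The inhibitor of DNA binding gene Id3 rose (0.67 ± 0.11), as did the gut-homing receptor Ccr9, from 5.22, 6.68 and 5.79 to 31.5, 19.3 and 23.4 CPM (2.06 ± 0.18). Per gene length, Tcf7 stayed the most abundant of these factors in effector cells, at 393 ± 19.6 FPKM (fragments scaled to gene length and library size), against 50.7 ± 2.65 FPKM for Lef1 and 7.56 ± 0.304 FPKM for Bach2 (SD, n = 3).

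Of 12 genes of the sort and of lymphoid homing, 4 rose and 6 fell, 2 and 3 of them past 2-fold (median -0.184). Ccr7, the receptor that brings T cells into lymph nodes, fell from 614, 583 and 583 to 116, 109 and 122 CPM (-2.36 ± 0.06), and S1pr1, the receptor that lets them leave, from 706, 706 and 690 to 289, 282 and 295 CPM (-1.28 ± 0.04). Klf2, a transcription factor of S1pr1, fell by 0.85 on the log2 scale, from 298, 299 and 298 to 140, 179 and 177 CPM. Il7r, the interleukin-7 receptor of long-lived T cells, was barely lower (-0.24 ± 0.10, edgeR adjusted p = 0.049), and under 8 of 14 alternatives it did not pass. The early activation marker Cd69 stood at 59.7, 71.5 and 70.8 CPM in naive and 64.4, 62.2 and 61.2 CPM in effector libraries (-0.10 ± 0.06, edgeR adjusted p = 0.15).

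**Figure D2:**
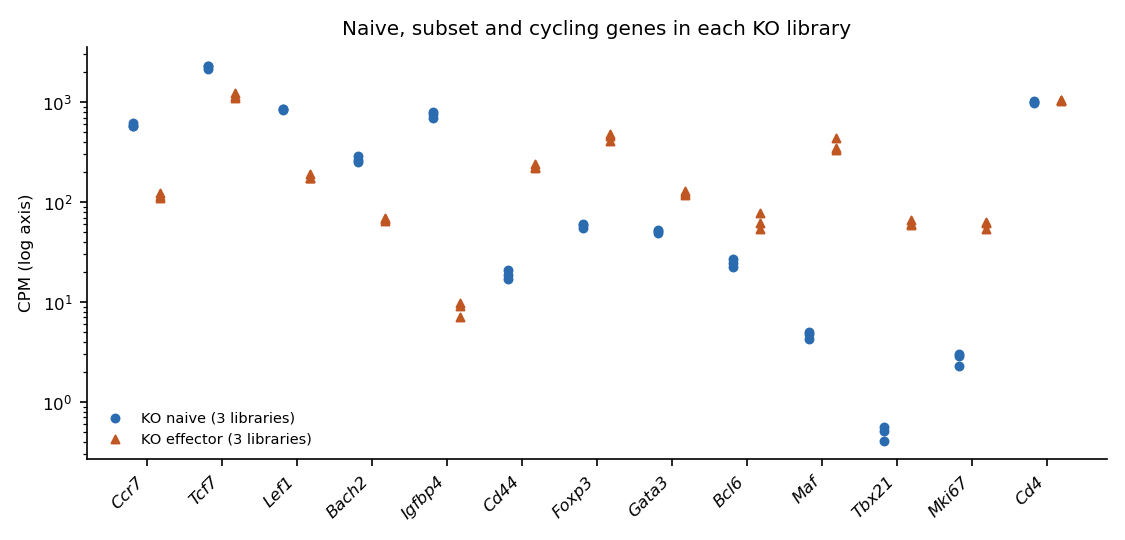
CPM on a log axis of 13 genes in each of the 3 KO naive libraries (blue circles) and 3 KO effector libraries (orange triangles). Cd4 overlaps between the groups, and the other 12 genes do not, with Igfbp4 falling from 698 CPM or more to under 10 CPM and Tbx21 rising from under 1 to 59.4 CPM or more.

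Effector transcription factors rose in most cases. Of 19 tested, 15 were higher past 2-fold, none was lower past it, and the median was 2.19. Maf, a factor of interleukin-10 and interleukin-21 expression, went from 4.23, 4.97 and 4.76 to 348, 433 and 331 CPM (6.32 ± 0.18), and Bhlhe40, which sustains cytokine production, from 2.12, 1.66 and 1.69 to 112, 120 and 103 CPM (5.93 ± 0.15). Id2, a partner of effector and innate-like fates, rose from 28.7, 29.3 and 25.3 to 345, 290 and 315 CPM (3.51 ± 0.12). Runx2 (4.98 ± 0.22), Zbtb32 (6.98 ± 0.28), Zeb2 (4.19 ± 0.64), Irf4 (3.6 ± 0.08) and Prdm1, which encodes BLIMP1 (2.19 ± 0.12), rose as well. The hypoxia-inducible factor Epas1 fell (-0.71).

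The factors that define the helper subsets rose together in the same bulk RNA. Tbx21, which encodes T-bet, went from 0.561, 0.51 and 0.41 to 65.6, 59.4 and 60.5 CPM. Gata3 and Bcl6 started higher and rose less, from 53.0, 50.9 and 48.7 to 119, 129 and 122 CPM (1.28 ± 0.05) and from 24.8, 22.4 and 27.2 to 54.1, 77.8 and 61.6 CPM (1.39 ± 0.12). Foxp3 read 59.5, 55.4 and 60.1 CPM in naive and 456, 483 and 408 CPM in effector libraries. Per gene length in effector cells, Foxp3 (109 ± 9.3 FPKM) stood above Gata3 (38.2 ± 1.6 FPKM), then Tbx21 (24.7 ± 1.4 FPKM), Bcl6 (18.2 ± 3.4 FPKM) and Rora (14.7 ± 1.4 FPKM; SD, n = 3 each). Bcl6 and Rora lie close to each other's spread, and the order was not tested.

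All 20 Th1 genes rose, 17 of them past 2-fold, with a median log2 change of 4.15. Cxcr3, the chemokine receptor of Th1 cells, went from 0.259, 0.468 and 0.82 to 161, 171 and 155 CPM (8.33 ± 0.18), and the chemokine Ccl5 from 1.47, 1.15 and 1.95 to 221, 205 and 193 CPM (7.10 ± 0.12). The cytokine Ifng itself was low, at 0.173, 0 and 0.205 CPM in naive and 8.23, 8.62 and 7.71 CPM in effector libraries (6.01 ± 0.42). Receptors that make a cell responsive to interleukin-12 and interleukin-18 rose: Il12rb2 by 5.20 ± 0.20, Il18rap by 6.70 ± 0.39 and Il18r1, already at about 100 CPM in naive cells, by 1.75 ± 0.08. Stat4 (0.76), Runx3 (0.52) and Ifngr1 (0.87) rose without passing the 2-fold test.

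Of 11 tested Th2 genes, 10 were higher past 2-fold (6 among genes of at least 5 CPM), with a median of 5.85. Il4 had 1 count over the naive group and 276 over the effector group, at 6.32, 5.15 and 5.03 CPM in effector libraries (ratio 366, 95% exact counting interval 65.1 to 14500). Il1rl1, the interleukin-33 receptor, went from 0.648, 0.425 and 0.717 to 41.2, 31.5 and 29.6 CPM (5.84 ± 0.23), and Ccr4, a receptor of skin-homing and Th2 cells, from 1.21, 0.978 and 0.666 to 148, 142 and 147 CPM (7.22 ± 0.11). Il4ra, the interleukin-4 receptor, went the other way, from 370, 343 and 350 to 150, 147 and 150 CPM (-1.25 ± 0.04). Il5, Il13 and Il24 were too low to be tested.

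Every tested Th17 gene, 10 of 13 listed, was higher past 2-fold, with a median of 6.11 (6.05 with the gene at 0 in naive cells set at its bound). Ccr6, the receptor that marks Th17 cells, went from 0.777, 1.32 and 1.28 to 65.6, 59.0 and 66.7 CPM (5.82 ± 0.16). Il23r, the interleukin-23 receptor, was at 0 in all naive libraries and at 3.31, 3.13 and 4.10 CPM in effector libraries, at least 77.5-fold higher against 3 counts over the group. Il1r1 had 3 counts over the naive group and 423 over the effector group (ratio 187, 95% exact counting interval 63.5 to 910), and the aryl hydrocarbon receptor gene Ahr rose (3.71 ± 0.14). Il17a, Il17f and Il22 were at or near 0 and did not reach the count needed for testing.

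Of 21 Treg genes, all rose and 20 passed the 2-fold test (median 3.49). Ctla4, an inhibitory receptor, went from 13.3, 13.7 and 13.3 to 244, 263 and 240 CPM (4.21 ± 0.07), and Ikzf2, which encodes HELIOS, from 30.7, 28.4 and 32.8 to 481, 484 and 382 CPM (3.88 ± 0.14). Il2ra, the high-affinity interleukin-2 receptor chain, rose by 2.31 ± 0.07 and Tnfrsf18, which encodes GITR, by 1.84 ± 0.06. Klrg1, a receptor of terminally differentiated Treg and effector cells, went from 0.518, 0.34 and 0.307 to 71.7, 63.4 and 53.9 CPM (7.31 ± 0.31). Gpr83 alone of the list stayed under 2-fold (0.38 ± 0.08). The Foxp3 transcript was present in the naive sort, at 14.2 ± 0.64 FPKM, while other members such as Klrg1 were nearly absent there.

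Of 22 Tfh genes, 17 were higher past 2-fold and 1 was lower (median 2.02). Cxcr5, the receptor for B cell follicles, went from 6.13, 6.55 and 6.04 to 134, 180 and 143 CPM (4.61 ± 0.16), and Pdcd1, which encodes PD-1, from 5.14, 5.65 and 5.02 to 157, 232 and 164 CPM (5.13 ± 0.21). Il21, the cytokine that helps B cells, went from 0.0864, 0.0425 and 0.0512 to 10, 18 and 10.8 CPM (7.61 ± 0.62), and Tox2 from 0.216, 0.298 and 0.205 to 41.8, 74.5 and 53.3 CPM (7.84 ± 0.37). Library 11 was the highest in each of these 4 genes. Il6ra, part of the interleukin-6 receptor, fell from 560, 569 and 573 to 258, 254 and 263 CPM (-1.14 ± 0.05), and its partner Il6st by 0.54 on the log2 scale. Cd40lg, the ligand through which helper cells stimulate B cells, was at 74.7, 70.6 and 75.8 CPM and 72.2, 72.2 and 77.7 CPM (edgeR adjusted p = 0.96).

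The 3 KO effector libraries differed among themselves along these programmes. Library 11, the deepest of them with 20381010 counts, was the highest of the 3 for all 17 Tfh genes past 2-fold, at a median of 0.25 log2 units above their mean, with library 10 at -0.18 and library 12 at -0.11. Library 11 was the highest for 982 of the 1739 genes past 2-fold higher (56.5%) and for 35.5% of 15855 tested genes with counts in all 3 libraries. It led also in 13 of 15 effector transcription factors, 16 of 20 Treg genes and 9 of 12 early response genes. It was the highest for 9 of 13 costimulatory and inhibitory receptors (69.2%) and 11 of 18 secreted genes (61.1%). For lists this small, neither share stands far from the 56.5% of all genes past 2-fold higher. Library 10 led in 10 of 17 Th1 genes and 6 of 9 innate-like genes, against 27.3% of all genes past 2-fold higher. Library 12 led in 7 of 10 Th17 genes, against 16.3%. These are counts over genes that share a library, with no test. Without library 11, 16 Tfh genes, 20 Treg genes and 11 early response genes passed the 2-fold test, so those counts did not rest on it.

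**Figure D3:**
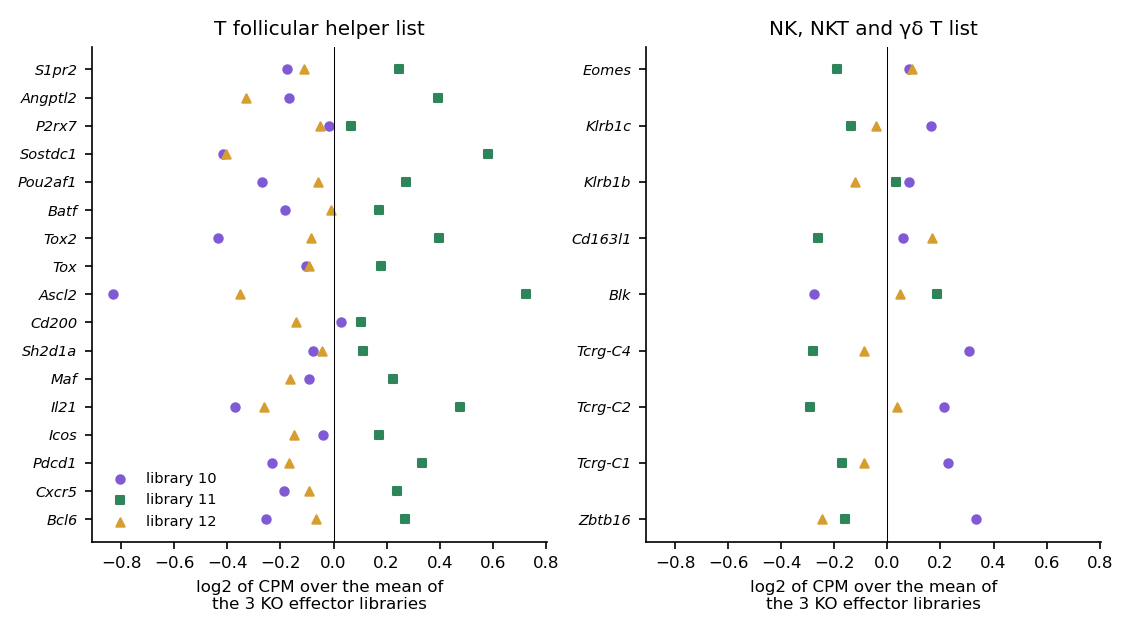
Log2 of each library's CPM over the mean of the 3 KO effector libraries, for the 17 Tfh genes (left) and 9 NK, NKT and γδ T cell genes (right) past the 2-fold test and higher. Library 11 (green squares) lies to the right of the others in all 17 Tfh genes, and library 10 (purple circles) is the highest in 6 of the 9 innate-like genes.

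Genes of cytotoxic and innate-like lymphocytes rose in the effector sort. Of 15 cytotoxic granule and NK receptor genes, 9 were higher past 2-fold and 1 was lower. Nkg7, a granule membrane gene, went from 0.95, 1.4 and 1.59 to 110, 96.5 and 91.7 CPM (6.25 ± 0.13), and Gzmb, which encodes granzyme B, from 0.302, 1.11 and 0.666 to 19.5, 19.3 and 19.6 CPM (4.79 ± 0.19). Klrk1, which encodes the activating receptor NKG2D, went from 0.475, 0.638 and 0.461 to 58.6, 41.2 and 41.1 CPM (6.46 ± 0.24). Gzmk had 2 counts over the naive group and 485 over the effector group (ratio 321, 95% exact counting interval 88.5 to 2660).

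Of 11 tested markers of NK, NKT and γδ T cells, 9 were higher past 2-fold (5 with limma on log2 of FPKM plus 1) and 0 lower past it. The summed level of the list was 20.3 to 23.4 CPM in naive and 172 to 226 CPM in effector libraries. Klrb1c, which encodes NK1.1, went from 0.259, 0.34 and 0.205 to 62.8, 51.0 and 54.5 CPM (7.65 ± 0.16). Trdc, the constant segment of the δ receptor chain, fell from 9.84, 11.6 and 10.1 to 6.03, 5.54 and 5.11 CPM (-0.91 ± 0.16). Whether these transcripts come from helper cells or from innate-like cells in the gate was not tested.

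Receptors that place cells in tissues changed as a class. Of 17 chemokine and tissue-homing receptors, 14 were higher past 2-fold and Ccr7 alone was lower past it, with a median of 5.85 (5.82 with Ccr10 at its bound). Ccr2, the receptor for inflammatory monocyte chemokines, went from 0.82, 1.45 and 0.82 to 142, 117 and 117 CPM (6.90 ± 0.21). Ccr8, a receptor of tissue Treg and Th2 cells, rose by 5.85 ± 0.22 and the gut receptor Gpr15 by 6.37 ± 0.18. Ccr10, a skin-homing receptor, was at 0 in naive libraries and at 2.15, 3.47 and 1.84 CPM in effector libraries, at least 54.8-fold higher. Cxcr4 (0.97 ± 0.20) and the oxysterol receptor Gpr183 (0.38 ± 0.06) rose less than 2-fold. In effector cells Cxcr6 (98.1 ± 17.9 FPKM) and Cxcr3 (93.2 ± 4.6 FPKM) were the most abundant per length of 9 receptors compared, followed by Ccr7 (58.2 ± 3.4 FPKM), Cxcr4 (54.9 ± 10.5 FPKM), Cxcr5 (52.2 ± 8.5 FPKM), Ccr4 (49.8 ± 1.2 FPKM), Ccr6 (33.1 ± 2.2 FPKM), Ccr8 (25.2 ± 5.5 FPKM) and Ccr2 (18.5 ± 2.1 FPKM). Cxcr6 and Cxcr3 lie within their spread of each other, and so do neighbours in this order from Ccr7 to Ccr4.

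Of 14 integrin chains, 6 were higher past 2-fold and Itga6, the laminin receptor chain, was lower (-1.13 ± 0.05). It lost the 2-fold call without KO naive library 8, without KO effector library 11 and with 4 other alternatives, and the count of 6 was 3 with limma on log2 of FPKM plus 1. Itgb1, the common β1 chain, went from 50, 54.4 and 49.7 to 708, 693 and 642 CPM (3.73 ± 0.06), and Itgae, the CD103 chain that binds epithelium, from 3.02, 2.68 and 2.77 to 109, 132 and 98.7 CPM (5.33 ± 0.21). Among 17 genes of S100 proteins, annexins, galectins and the cytoskeleton, 10 were higher past 2-fold and 0 lower. S100a4 went from 0.13, 0.34 and 0.256 to 49.7, 49.1 and 48.8 CPM (7.63 ± 0.19), and Ahnak, a giant scaffold protein, from 76.4, 66.6 and 68.8 to 1670, 1360 and 1340 CPM (4.37 ± 0.15). Anxa2 (3.85), Lgals1 (1.99) and Lgals3 (4.64) rose too, while Crip1 stood at 146, 137 and 135 CPM and 128, 136 and 147 CPM (-0.03, edgeR adjusted p = 0.82).

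All 23 costimulatory and inhibitory receptors of the immunoglobulin family rose, 13 past 2-fold (median 1.62). The inhibitory receptor Lag3 went from 0.864, 1.15 and 1.18 to 54.2, 100 and 52.6 CPM (6.04 ± 0.43), beside Tigit, Pdcd1 and Ctla4 above. Icos, a costimulator, rose from 39.9, 47.2 and 39.5 to 295, 341 and 273 CPM (2.84 ± 0.09), and Cd28, the main costimulator of naive cells, only from 276, 303 and 306 to 418, 381 and 390 CPM (0.43 ± 0.05). In the TNF families 8 of 20 were higher past 2-fold and 0 lower. Tnfrsf4, which encodes OX40, rose by 3.40 ± 0.08, Tnfrsf9 (4-1BB) by 3.49 ± 0.09, the ligand Tnfsf11 (RANKL) by 4.33 ± 0.09 and Tnfsf14 (LIGHT) by 6.82 ± 0.13. Cd27 (0.12), Ltb (0.18) and the death receptor Fas (0.14, edgeR adjusted p = 0.12) differed little, and the Fas ligand gene Fasl rose by 2.18 ± 0.10.

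Secreted factors were mostly higher in effector cells. Of 23 tested genes, 18 were higher past 2-fold and 0 lower past it (median 4.64), a count of 10 among genes of at least 5 CPM and of 11 with limma on log2 of FPKM plus 1. Il10, an anti-inflammatory cytokine, had 1 count over the naive group and 225 over the effector group, at 3.31, 6.26 and 3.18 CPM in effector libraries. Csf1, the macrophage growth factor, went from 1.86, 1.28 and 1.74 to 52.0, 59.8 and 42.4 CPM (5.0 ± 0.18), and Penk, which encodes proenkephalin, from 1.04, 0.893 and 1.18 to 58.2, 68.3 and 68.5 CPM (5.97 ± 0.13). Il2 rose from 0.432, 0.765 and 0.666 to 2.09, 2.74 and 2.51 CPM (1.97 ± 0.26). Spp1, which encodes osteopontin, read 1.51, 5.20 and 0.67 CPM in the effector libraries, with library 11 the highest. Tgfb1, at 104, 104 and 103 CPM in naive cells, rose by 0.49 ± 0.07.

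Cytokine receptors moved in both directions. Of 29 tested, 13 were higher and 4 lower past 2-fold. Il2rb, the chain that gives response to interleukin-2 and interleukin-15, went from 102, 110 and 110 to 1100, 1140 and 995 CPM (3.33 ± 0.06), while the shared γ chain gene Il2rg changed little (0.17 ± 0.04). Il9r went from 0.0432, 0.468 and 0.461 to 59.1, 61.3 and 64.0 CPM (7.56 ± 0.27) and Il10ra rose by 2.01 ± 0.05. Tgfbr3, a coreceptor of TGF-β, fell from 156, 157 and 149 to 32.6, 29.9 and 33.1 CPM (-2.28 ± 0.05), beside the falls of Il4ra and Il6ra. Downstream, 3 of 17 JAK, STAT and SOCS genes were higher past 2-fold and 0 lower. Cish (1.89 ± 0.06) and Socs2 (3.66 ± 0.12), feedback genes of STAT5, rose, Socs3 fell (-0.83 ± 0.09), and Stat3 (-0.01) and Stat5a (0.06) did not pass the test.

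Genes of proximal T cell receptor signalling moved in both directions, mostly by less than 2-fold. Of 31 genes 12 rose and 10 fell, and the range of log2 changes was -1.15 to 1.35. Past 2-fold, 1 was higher (3.23%, against 10.9% of all tested genes) and 1 lower (against 2.68%). Lck, the first kinase of the pathway, read 1110, 1050 and 1040 CPM and 990, 1060 and 1050 CPM (edgeR adjusted p = 0.39), and the adaptor Lat differed by -0.01. Zap70 rose (0.75 ± 0.06), as did the phosphatase gene Ptpn22 (1.03 ± 0.05), and the adaptor Sla, past 2-fold (1.35 ± 0.04). Txk, a TEC family kinase (-1.15 ± 0.07), and Dgka, which removes the second messenger diacylglycerol (2160, 2090 and 2040 to 1040, 981 and 1050 CPM, -1.03 ± 0.05), fell. Txk passed the 2-fold test narrowly (edgeR adjusted p = 0.048) and lost that call under 9 of 14 alternatives.

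Of 24 early response genes 18 rose, 12 of them past 2-fold, and 2 fell (median 1.14). The count past 2-fold was 5 with limma on log2 of FPKM plus 1. Egr2, a factor of tolerance and Tfh cells, went from 10.9, 13.5 and 13.9 to 52.7, 68.6 and 52.2 CPM (2.19 ± 0.13), and the ERK feedback genes Dusp4 (3.35 ± 0.16) and Spry1 (3.66 ± 0.14) rose. Nr4a1 rose from 39.1, 43.8 and 45.6 to 87.6, 109 and 91.5 CPM (1.17 ± 0.08), and Nr4a3 by 1.69 ± 0.10. Myc fell, from 93.3, 88.6 and 90.5 to 52.8, 55.2 and 56.7 CPM (-0.73 ± 0.08). Of 23 NF-kB pathway genes, 17 rose and 2 fell. Icam1 alone passed the 2-fold test (1.72 ± 0.05), 4.35% of the list against 10.9% of all tested genes higher past 2-fold. Nfkb2 (0.98), Relb (0.93) and Tnfaip3 (0.76) moved by less. Of 23 PI3K, AKT, FOXO and mTOR genes, 1 was higher past 2-fold (4.35%, against 10.9% of all tested genes). Another 2 were lower past it (against 2.68% of all tested genes). The PI3K inhibitor Pik3ip1 fell from 201, 198 and 188 to 58.7, 57.5 and 59.1 CPM (-1.75 ± 0.05) and the kinase Sgk1 by 1.24 on the log2 scale.

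Several cell cycle genes rose from low levels. Of 17 mitosis genes 14 rose, 10 of them past 2-fold, and 0 fell (median 1.81). Mki67, which marks cycling cells, went from 2.89, 3.02 and 2.31 to 62.0, 62.5 and 53.2 CPM (4.43 ± 0.17), Top2a from 8.55, 9.65 and 6.66 to 26.5, 29.5 and 27.4 CPM (1.74 ± 0.12), and Cdk1 from 0.777, 0.34 and 0.563 to 2.84, 3.18 and 2.60 CPM (2.36 ± 0.26). Of 11 DNA replication genes 3 were higher past 2-fold, namely Tk1 (3.16 ± 0.17), Tyms (1.76 ± 0.16) and Rrm2 (1.48 ± 0.15), while Pcna (-0.02) and Mcm2 (-0.08) did not pass the test and Mcm7 fell (-0.26). Of 14 G1 genes 3 were higher and 1 lower past 2-fold. The inhibitor Cdkn1a rose from 0.13, 0.128 and 0.154 to 2.09, 3.27 and 2.68 CPM (4.24 ± 0.40), Cdk6 by 1.73 ± 0.12 and the inhibitor Cdkn2c by 2.49 ± 0.13, and the inhibitor Cdkn2d fell (-1.14 ± 0.06). The D cyclins Ccnd2 (-0.08) and Ccnd3 (0.03) did not pass. The count of mitosis genes past 2-fold fell to 4 among genes of at least 5 CPM and to 1 with limma on log2 of FPKM plus 1, a scale that compresses genes this low.

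Mki67 is shown as the member of the mitosis list with the largest change. Its promoter window (GRCm38.p6, chr7:135716330-135716629, minus strand, 250 bases before to 50 after the RefSeq start) holds 2 CHR motifs (TTTGAA) and 3 CCAAT motifs on either strand, in capitals, of the kind that late cell cycle promoters are known for.

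Mki67: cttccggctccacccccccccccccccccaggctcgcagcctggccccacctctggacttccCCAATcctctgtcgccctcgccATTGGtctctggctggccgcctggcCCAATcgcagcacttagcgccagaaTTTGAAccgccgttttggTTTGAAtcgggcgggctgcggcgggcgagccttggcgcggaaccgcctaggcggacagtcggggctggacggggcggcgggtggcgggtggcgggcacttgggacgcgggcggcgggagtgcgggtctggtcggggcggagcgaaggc

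The CHR matches begin 116 and 98 bases before the start. Of the 42 tested cell cycle genes, 35 had a RefSeq window. CHR was in 10 of these (28.6%, against 18.1% of all 27025 windows), among them Mki67, Top2a, Ccnb2, Cdk1, Plk1, Cdc20, Ube2c and Kif11 of the mitosis list. CCAAT was in 24 (68.6%, against 37.9%), and the E2F motifs TTTCCCGC or TTTGGCGC in 6 (17.1%, against 1.63%), namely Cdk2, E2f2, Mcm3, Mcm5, Mcm6 and Mcm7. The other motifs searched were AP-1 (TGANTCA, in 7.93% of all windows), NF-kB (GGANTTTCC, 1.23%), T-box (AGGTGTGA, 1.27%, which shares GGTGTG with the KLF motif), TCF/LEF (CTTTGAT, 3.72%, which shares TTTGA with CHR) and STAT (TTCNNNGAA, 8.47%). Their matches among the 35 windows were 0, 1, 0, 2 and 1. The windows of Cdkn1a, Tk1 and Cxcr3 held none of the motifs and are not printed. Matches on both strands were counted and no test was made. For all genes past 2-fold such a comparison is void, since 71.2% of the higher and 59.6% of the lower genes had a window. Coverage was uneven for the cell cycle genes as well (83.3%, against 62.1% of tested genes). The 27025 windows also include genes that were not tested. These shares describe the letters of the listed genes and say nothing about the change from naive to effector cells.

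Many glycolysis genes rose by less than 2-fold. Of 22, 16 rose and 3 fell, 4 and 1 of them past 2-fold (median 0.28). The hexokinase gene Hk2 rose from 0.561, 0.723 and 0.563 to 6.38, 5.87 and 5.70 CPM (3.26 ± 0.21), the lactate exporter Slc16a3 by 3.12 ± 0.18 and the glucose transporter Slc2a3 by 1.16 ± 0.05, while Pdk1, which restrains pyruvate entry into mitochondria, fell from 458, 462 and 473 to 138, 118 and 134 CPM (-1.84 ± 0.05). Ldha (-0.08) did not pass. Gapdh was counted at only 1.53 to 3.51 CPM; it has near-identical copies, and its values are uncertain where reads map to several copies. None of 22 cholesterol genes passed the 2-fold test, 12 fell and 2 rose, among the falls Hmgcs1 (-0.45 ± 0.06). Of 9 tested mitochondrially encoded mRNAs 4 fell, by less than 2-fold, with mt-Co1 at -0.28 ± 0.07, and mt-Co2, mt-Co3, mt-Atp6 and mt-Atp8 are listed at 0 in all 6 libraries and were not tested. The mitochondrial share of counts was 1.38% ± 0.052 in naive and 1.21% ± 0.136 in effector libraries (SD, n = 3; two-sided exact permutation p = 0.2, smallest possible 0.1).

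Genes around the function of Rinl passed the 2-fold test at shares not far from those of all tested genes. Of 30 RAB5 exchange factors, RAB5 GTPases and endosome genes, 2 were higher past 2-fold (6.67%, against 10.9% of all tested genes). In the other direction, 1 was lower past it (against 2.68% of all tested genes). The median was 0.141. Rin2, a relative of Rinl, went from 0.173, 0.383 and 0.359 to 15.8, 22.4 and 12.2 CPM (5.79 ± 0.30), and Eea1, the tether that RAB5 recruits to early endosomes, from 5.92, 6.21 and 6.45 to 147, 177 and 134 CPM (4.63 ± 0.12). Als2cl, of the same kind of RAB5 regulators, fell from 1180, 1100 and 1100 to 279, 264 and 277 CPM (-2.04 ± 0.05). The relative Rin3 (0.17 ± 0.05) and the exchange factor Rabgef1 (0.36 ± 0.06) rose slightly, and Rab5a did not pass (-0.11, edgeR adjusted p = 0.093). The residual Rinl transcript rose by 0.52 ± 0.05 in KO, beside 0.61 ± 0.04 in WT (difference -0.09 ± 0.07, edgeR adjusted p = 0.74).

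Survival genes moved in both directions. Of 15 tested BCL2 family genes, 6 were higher and 1 lower past 2-fold. Bcl2, the survival factor of naive cells, fell from 288, 315 and 316 to 125, 123 and 129 CPM (-1.28 ± 0.05), and Bcl2l1, which encodes BCL-XL, rose from 16.7, 16.3 and 18.8 to 48.8, 45.8 and 51.8 CPM (1.5 ± 0.08). The pro-apoptotic Bcl2l11 (BIM) fell (-0.61 ± 0.05) and Pmaip1 (NOXA) rose (3.26 ± 0.17). Bcl2a1b (3.04) and Bcl2a1d (3.36) rose as well, but are near-identical copies whose reads may be split. Of 12 tested purinergic genes 6 were higher past 2-fold and 0 lower past it. P2rx7, the ATP-gated channel, went from 30.1, 31.7 and 33.7 to 322, 341 and 315 CPM (3.36 ± 0.06), and Entpd1 (4.49 ± 0.11) and Nt5e (2.55 ± 0.09), the CD39 and CD73 enzymes that turn ATP into adenosine, rose with the adenosine receptor Adora2a (2.05 ± 0.08).

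Of 27 interferon-induced genes, 2 were higher past 2-fold (7.41%, against 10.9% of all tested genes). Another 1 was lower past it (against 2.68% of all tested genes), and the median was 0.256. Mx1, an antiviral GTPase, rose from 9.33, 11.9 and 11.5 to 45.9, 53.0 and 48.6 CPM (2.18 ± 0.12) and Oas1a by 1.75 ± 0.06, while Oas2 of the same family of RNA-sensing enzymes fell from 94.3, 97.2 and 103 to 31.4, 33.7 and 32.2 CPM (-1.60 ± 0.07). Ifit1 (0.02) and Irf7 (0.01) did not pass. Of 13 tested genes of heat shock and cell handling, Gadd45b alone passed the 2-fold test (2.42 ± 0.10). It made up 7.69% of the list, against 10.9% of all tested genes higher past 2-fold. In all, 3 rose and 5 fell, against 31.6% and 26.8% of all tested genes.

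**Figure D4:**
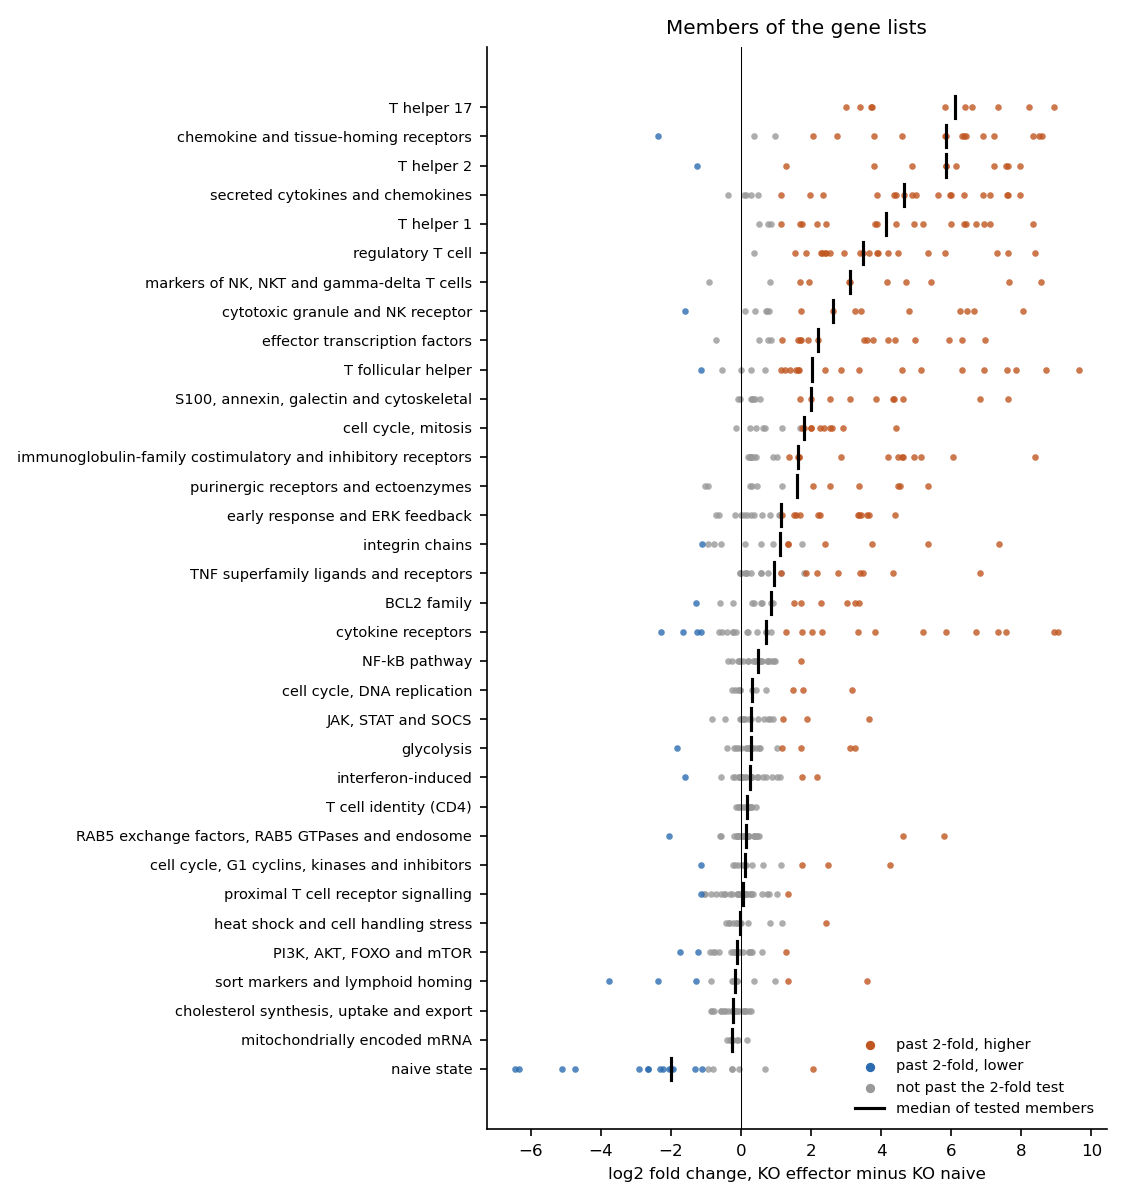
Log2 fold change of KO effector minus KO naive for each tested member of 34 gene lists (points), with the list's median (black bar), ordered by median. The helper subset, chemokine receptor and secreted lists have medians above 2, the naive state list lies at -1.99, and lists of T cell receptor signalling, PI3K, cholesterol and mitochondrial genes stay near 0.

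The 5 most abundant transcripts per length in each state had 3 in common, and none of them passed the 2-fold test. In KO naive cells they were Eef1a1, Rplp1, mt-Co1, Rps27 and mt-Cytb, and in KO effector cells mt-Co1, H2-K1, Eef1a1, B2m and mt-Cytb. The translation factor Eef1a1 fell from 7890, 7770 and 7450 to 4880, 4860 and 4940 CPM (-0.65 ± 0.05), with the ribosomal Rplp1 (-0.80 ± 0.08) and Rps27 (-0.72 ± 0.05), and the class I genes H2-K1 (0.19 ± 0.04) and B2m (0.19 ± 0.04) rose slightly. The 10 most abundant genes took 4.45% ± 0.066 of counts in naive and 3.89% ± 0.133 in effector libraries (SD, n = 3; two-sided exact permutation p = 0.1, the smallest possible).

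The effector change of KO cells could be set against that of WT cells, which asks whether Rinl loss alters the step from naive to effector. Of the genes past 2-fold in KO, 1817 passed in the same direction in WT, 348 passed in KO alone and 0 in the opposite direction; passing in 1 genotype alone does not show a difference. The difference itself was called for 23 genes, 3 higher (0.0189%) and 20 lower (0.126%) in KO, and for 1461 genes at an unadjusted p under 0.05. In 13 of the 23 the absolute change was smaller in KO and in 10 larger. Among the 23, 15 had passed the 2-fold test in KO.

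The largest difference was in Fbxo27, an F-box gene for glycoproteins that lies 89.6 kb before Rinl on chromosome 7 (28692849 to 28699338). It read 1.74, 1.72 and 2.24 CPM in WT naive and 9.58, 12.2 and 13.6 CPM in WT effector libraries, and 21.2, 18.6 and 18.6 CPM in KO naive and 14.8, 13.2 and 15.1 CPM in KO effector libraries. So it rose in WT (2.66) and fell in KO (-0.45), a difference of -3.11 ± 0.20 (edgeR adjusted p = 1.2e-09). Its relative Fbxo17, 50.8 kb before Rinl, fell by 1.49 on the log2 scale in KO and 0.49 in WT, from 94.4 ± 3.02 CPM in KO naive and 12.7 ± 0.742 CPM in WT naive cells (SD, n = 3). Reads shared between these related genes may be split.

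Several effector genes rose less in KO, and some had higher naive levels there. Some markers of other cells were also higher in KO naive than in WT naive libraries. The myeloid list summed to 43.6 to 57.4 CPM against 30.7 to 42.5 CPM. All KO naive libraries lay above all WT naive ones for 3 of 13 myeloid and 7 of 15 B cell markers. They did so for 2 of 6 plasma cell and 6 of 12 innate-like markers. For CD8, erythroid and platelet, stromal and T cell identity genes the count was 0. Of those, 1 stromal and 3 T cell identity genes lay wholly below WT. The share over all genes was not worked out, so these counts are a description only. The summed B cell list overlapped, at 589 to 641 CPM in KO naive and 609 to 630 CPM in WT naive libraries. Lyz2, a myeloid gene, was at 8.93 ± 2.25 CPM in KO naive and 2.25 ± 2.81 CPM in WT naive cells (SD, n = 3). The part of these cells in the differences was not tested. Ccl5 rose by 7.10 in KO and 9.35 in WT (difference -2.25 ± 0.37, edgeR adjusted p = 0.019), from 1.52 ± 0.402 CPM in KO naive and 0.415 ± 0.178 CPM in WT naive cells. S100a6 differed by -2.15 ± 0.38, with 1.02 ± 0.093 CPM in KO naive and 0.27 ± 0.094 CPM in WT naive cells. In effector cells Ccl5 was at 206.3 ± 13.7 CPM in KO and 268 ± 23.1 CPM in WT. S100a6 was at 117.4 ± 7.35 CPM in KO and 135 ± 13.1 CPM in WT effector cells. For both genes the log2 difference thus lay mostly in the low naive levels. Myo1f, a myosin of leukocyte movement, differed by -1.59 ± 0.22. Its naive level was 1.97 ± 0.22 CPM in KO and 0.789 ± 0.13 CPM in WT. Its effector level was 215 ± 5.18 CPM in KO and 260 ± 16.5 CPM in WT. Smaller differences were called for the lysosomal Arsb (-0.62), Ctsw, a cathepsin of cytotoxic cells (-0.63), Glipr2 (-0.49), Golm1 (-0.45), Il2rb (-0.44) and Hopx (-0.56), and for the falls of Vipr1, a neuropeptide receptor (-0.57), and Pdlim4 (-0.99). The adhesion gene Jaml fell in KO, from 17.2 ± 0.946 to 12.1 ± 1.3 CPM, and rose in WT, from 16.2 ± 0.292 to 20 ± 2.25 CPM (SD, n = 3; difference -0.82). For Klrb1c (7.65 in KO and 11.48 in WT, difference -3.83 ± 0.91, edgeR adjusted p = 0.10), Zbtb16 (difference -4.01 ± 2.58, edgeR adjusted p = 0.69) and Tbx21 (-1.13 ± 0.48, edgeR adjusted p = 0.48) the difference did not pass, and naive levels were near 0. The 23 calls depended on single libraries, from 10 to 85 genes when 1 of the 12 was left out, and the count moved by over 1.5 times without any of 8 libraries. The count was 85 without WT effector library 4, 47 and 39 without KO effector libraries 10 and 12, 12, 10 and 15 without KO naive libraries 7, 8 and 9, 11 without WT naive library 2 and 14 without WT effector library 6.

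**Figure D5:**
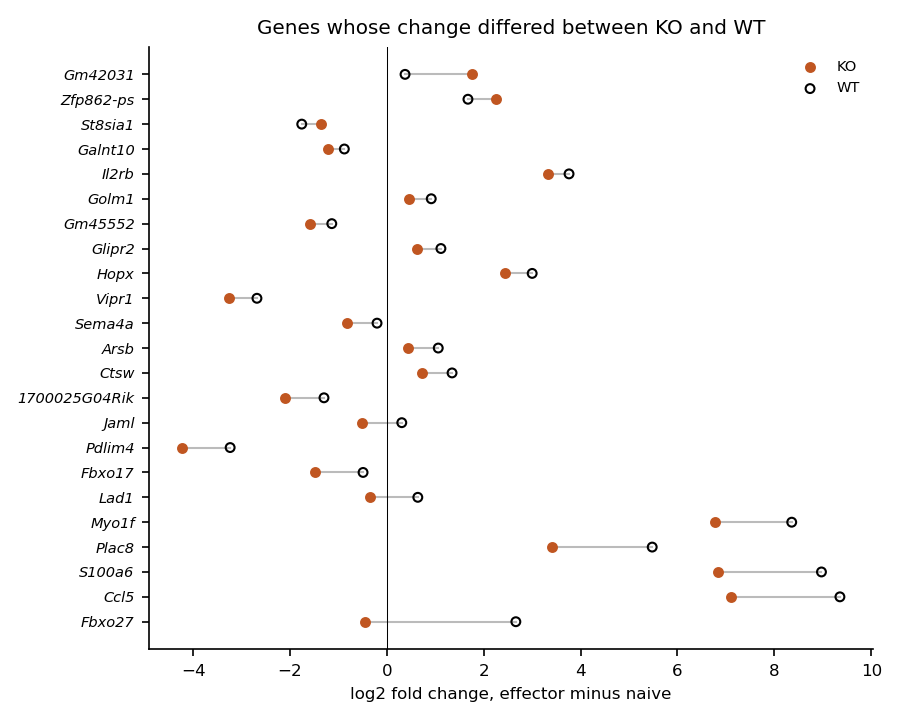
Log2 fold change of effector minus naive in KO (filled circles) and WT (open circles) for the 23 genes whose change differed between genotypes, ordered by the difference. Fbxo27 has the largest gap, rising in WT (2.66) and falling in KO (-0.45), and for 20 of the 23 genes the KO value lies to the left.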

How the data were processed

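Per the labels' protocols, RNA of sorted cells went into TruSeq Stranded mRNA libraries. The authors deposited raw counts per gene and FPKM per gene, both per the file headers. The submitters' processing notes name STAR, Picard, DESeq2 1.30.0 and the mm10/GRCm38 build. How reads were assigned to genes (tool, strand, reads with several matches) was not given in the sources used here. Values of overlapping genes and near-identical copies are therefore uncertain. The deposited FPKM equalled counts divided by gene length and a size factor, checked on 11921 genes.

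From the counts, 15905 of 55487 genes passed edgeR's filter by expression. All 12 libraries entered 1 fit in edgeR 4.0.16 (R 4.3.3) with TMM normalization, 1 coefficient per group and the robust quasi-likelihood test, with Benjamini-Hochberg adjustment at 0.05. The 2-fold test was glmTreat at a log2 threshold of 1. The SE of a log2 value is its absolute value divided by the square root of its F statistic. The difference between genotypes was the interaction term. CPM are counts scaled to the TMM library size, and a floor is 3 counts over a group. The test was checked on simulated data. Columns were joined to groups by their names, which carry a library number from 1 to 12. No pair of replicate libraries matched within sampling noise, so each counted as 1 sample.

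Genes named are Rinl, marked members of each list, the 12 largest rises and 12 largest falls past 2-fold with at least 5 CPM, up to 3 further members of each list past 2-fold, the 12 smallest adjusted p-values of the difference, and the 5 most abundant genes per length in each state. The largest rises and falls were also required not to overlap between naive and effector libraries. Other list members were named after their values were seen. Some genes that the rule or the lists hold are not reported here by name, and counts over lists include them. The members and lists were chosen with earlier results of these data known. Promoter windows are from RefSeq. The alternatives were DESeq2 size factors, DESeq2 1.42.0, limma-voom (limma 3.58.1), 2 other filters, the 6 KO libraries alone, limma on log2 of FPKM with a pseudocount of 1 or 0.1, and leaving out each library.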

Additional observations from a re-analysis of the deposited data

Results flagged for a closer look

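For 14 named genes the change from naive to effector cells differed between KO and WT by edgeR's interaction term at an adjusted p under 0.05, with 3 libraries in each of the 4 groups. In log2 units, KO minus WT, the difference was -3.11 for Fbxo27, -0.99 for its neighbour Fbxo17, -0.62 for Arsb and -1.59 for Myo1f. These 4 calls held under all 19 alternatives. It was -0.57 for Vipr1, -0.63 for Ctsw and -0.82 for Jaml, each lost under 2 of the 19. It was -2.15 for S100a6 (lost under 4), -2.25 for Ccl5 (6), -0.49 for Glipr2 (7), -0.99 for Pdlim4 (7), -0.45 for Golm1 (6), -0.44 for Il2rb (5) and -0.56 for Hopx (11). Fbxo27 and Fbxo17 lie on chromosome 7 beside the altered gene, and whether their difference comes from that locus or from the loss of Rinl cannot be told apart here.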

How the results depend on the processing

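No paired analysis was possible because the columns carry library numbers from 1 to 12 and not the replicate numbers of the labels. The count of 9281 changed genes stayed between 7296 and 9961 under all alternatives, and between 8449 and 9122 when 1 KO library was left out. The count past 2-fold (2165) was 1188 among genes of at least 5 CPM, where fewer genes were tested, and 821 on log2 of FPKM plus 1. It was 1993 to 2284 with 1 library left out. The 23 called differences became 61 with DESeq2, 277 with no filter on low counts, 13 on log2 of FPKM plus 1 and 8 on log2 of FPKM plus 0.1, and 10 to 85 with 1 library left out; the cause was not tested. Of 4363 values of 313 named genes under alternatives, 0 reversed, 49 lost their call and 8 gained one. Of 1148 counts of list members past 2-fold, 46 moved by over 1.5 times. The 10 mitosis genes became 6 on log2 of FPKM plus 0.1, and on log2 of FPKM plus 1 the glycolysis count fell from 4 to 1 and those of replication and G1 genes from 3 to 1 each. Cdkn2d lost its 2-fold call under 4 alternatives. With 3 libraries a group, genes of a few counts in naive cells have a rise whose size is poorly known, and exact permutation tests cannot go below 0.1.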
